A study of Homo sapiens with 3 samples.

Results

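Neuronal nicotinic acetylcholine receptors are pentameric channels that open when acetylcholine or nicotine binds. The 10 genes described here (CHRNA2, CHRNA3, CHRNA4, CHRNA5, CHRNA6, CHRNA7, CHRNA9, CHRNB2, CHRNB3 and CHRNB4) encode the subunits from which most of these receptors are built, and they were chosen by gene symbol from a table of 78932 genes. The samples were 3 untreated, genotypically wild-type preparations of iCell GlutaNeurons (iGluta), a commercial product of human glutamatergic neurons made from induced pluripotent stem cells, after 3 weeks of culture. The study set out to describe the cell types in the culture and the receptors and channels they expressed. There was 1 group and no other treatment, genotype or age, and all 3 samples came from 1 named cell product. The labels do not say that the samples were separate cultures, so SDs and p-values here cover the variation among these 3 samples alone, and that variation may be technical.

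The alpha subunits other than alpha5 carry the main face of the agonist site, and in heteromeric receptors a beta subunit gives the other face. CHRNA4 and CHRNB2 products form the most widespread heteromeric receptor of the brain, which binds nicotine with high affinity. The CHRNA7 product forms homomeric receptors with high calcium permeability that bind alpha-bungarotoxin. CHRNA3 and CHRNB4 are known from autonomic ganglia and the medial habenula, CHRNA6 and CHRNB3 from midbrain dopamine neurons and the retina, and CHRNA9 with CHRNA10 from cochlear hair cells.

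Depth was 41079348 estimated counts in replicate 1, 60092991 in replicate 2 and 34732725 in replicate 3. All 5 pan-neuronal markers, all 3 GABAergic markers and 2 of 3 glutamatergic markers were above 1 TPM, whereas 0 of 3 astrocyte, 0 of 3 oligodendrocyte and 0 of 3 microglial markers were called above it (limma, adjusted p under 0.05; at an unadjusted p under 0.05 none of these 9 was above either). Of the 3 astrocyte markers 2 were undecided and 1 was below 1 TPM, and the same held for the 3 oligodendrocyte markers. The microglial markers were below (2) or listed at 0 (1). GFAP (mean 0.823 TPM) and AQP4 (0.84) lay just under 1 TPM, so the missing calls do not show that glia were absent. TPM divides a gene's reads by transcript length and scales each library to 1 fixed total, so it is a share of the library. Replicate 3 differed from the others: genes of the mitochondrial genome took 4.25, 4.01 and 10.6% of TPM in replicates 1, 2 and 3, the 3 glutamatergic markers (SLC17A6, SLC17A7 and SLC17A8) summed to 93.0, 116 and 180.1 TPM, and the 3 GABAergic markers (GAD1, GAD2 and SLC32A1) to 467, 509 and 245 TPM. Of the glutamatergic markers SLC17A8 was instead lowest in replicate 3, at 0.6, 1.07 and 0.16 TPM on 47, 57 and 7 counts. The labelled glutamatergic identity came with GABAergic genes in all 3 libraries. In bulk RNA, fewer cells of a type and less RNA per cell cannot be told apart.

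One subunit cannot be read from these tables without its duplicate. CHRFAM7A is a human fusion gene that carries a copy of the last exons of CHRNA7 behind a different start. CHRNA7 lies on the forward strand of chromosome 15 from 32030483 to 32173018, and CHRFAM7A on the reverse strand from 30360566 to 30393900 (GRCh38.p14, RefSeq). In the longest coding transcripts of GENCODE release 29, 4286 of 6031 windows of 151 bases of CHRNA7 (71.1%) were identical to a CHRFAM7A transcript, and 70.6% of those of CHRFAM7A to CHRNA7. The 2 coding sequences around the junction are shown because they mark where the shared part begins. Some 151-base windows of CHRNA7 past the junction were still not identical to CHRFAM7A. The lower-case bases precede the junction, and those of CHRFAM7A were not searched for in genes other than CHRNA7. The capitals are the shared sequence. It begins at base 463 of the CHRNA7 transcript, in exon 5 (chromosome 15, 32153907 to 32153986). In the CHRFAM7A transcript it begins at base 535, also in exon 5 (30377030 to 30377109).
CHRNA7: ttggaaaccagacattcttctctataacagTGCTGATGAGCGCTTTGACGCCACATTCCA
CHRFAM7A: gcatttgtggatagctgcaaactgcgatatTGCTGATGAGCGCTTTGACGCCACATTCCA
The 30 capitals were the same in both, and 5 of the 30 bases before them matched by position. For the other 9 subunits, none of the 151-base windows of the longest coding transcript occurred on the same strand in a transcript of another gene.

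Of the 10 subunit genes, 8 were above 1 TPM, 1 was undecided and 1 was below (limma on log2(TPM + 0.1), 2-sided, Benjamini-Hochberg adjusted over 38992 genes). Over all genes tested 40.6% were above and 45.1% below, and over protein-coding genes 71.2% were above. The median of the subunits' mean TPM was 3.70, against 0.73 over all genes tested. Of the 38992 genes tested 17804 were protein-coding, as the 10 subunit genes are. A median over protein-coding genes alone was not computed, so the 0.73 does not compare the subunits with their like. CHRNA4, CHRNB2 and CHRNA7 led in every library, and CHRNB3 was the lowest in every library. Together the 10 genes summed to 148.91, 156.65 and 142.52 TPM in replicates 1, 2 and 3.

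**Figure D1:**
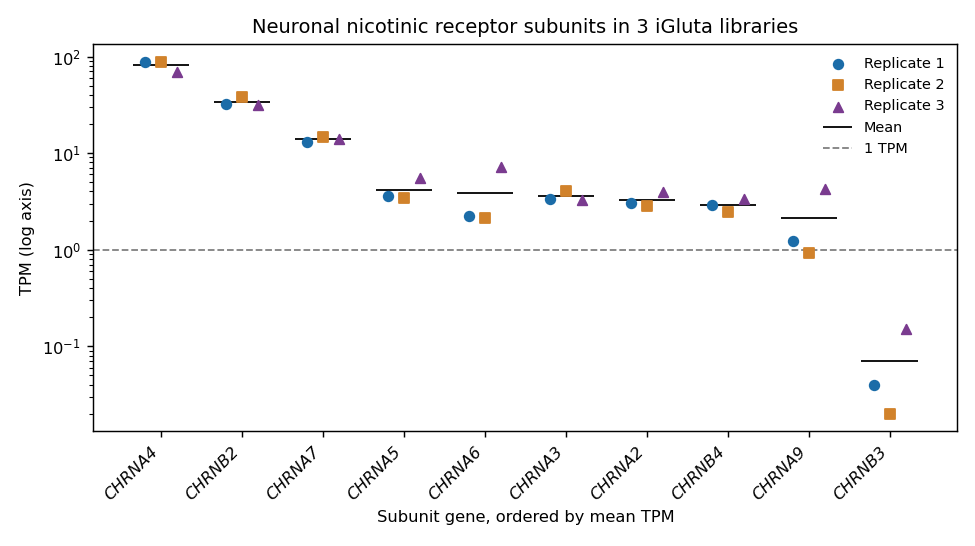
TPM of the 10 subunit genes (log axis) in each of the 3 libraries, with the mean as a horizontal line and the 1 TPM bar dashed. CHRNA4, CHRNB2 and CHRNA7 stand apart at 13.06 TPM or more, 6 genes lie between 0.92 and 7.1, and CHRNB3 is at 0.15 or less; CHRNA6 and CHRNA9 are highest in replicate 3.

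CHRNA4, the alpha subunit of the main brain receptor and a gene of inherited sleep-related frontal lobe epilepsy, was at 86.89, 88.59 and 69.51 TPM in replicates 1, 2 and 3. Its mean of 81.7 ± 10.6 TPM (SD, n = 3) lay 6.21 ± 0.09 (SE) above the bar on the log2 scale (limma adjusted p = 2.65e-10). Replicates 1 and 2 were close to each other and replicate 3 was lower. CHRNA4 supplied 58.4, 56.6 and 48.8% of the summed subunit TPM. The gene lies on the reverse strand of chromosome 20 from 63343223 to 63361349 (GRCh38.p14).

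CHRNB2, the beta partner of CHRNA4, was at 32.58, 37.65 and 31.26 TPM (mean 33.8 ± 3.37, limma adjusted p = 9.01e-10). It supplied 21.88, 24.03 and 21.93% of the summed TPM and lies on chromosome 1 from 154567778 to 154580013. CHRNA7 was at 13.06, 14.5 and 14.1 TPM (mean 13.9 ± 0.743, limma adjusted p = 1.25e-08). Its coefficient of variation of TPM, 5.35%, was the smallest of the 10 genes, and 13.0% of all genes above the bar had a smaller one. This place depends on the unit. Estimated by edgeR from the counts, the biological coefficient of variation of CHRNA7 was 0.148, above the 0.108 of CHRNA4 and of CHRNB2. CHRFAM7A was at 6.9, 6.41 and 7.19 TPM (mean 6.83 ± 0.394, limma adjusted p = 5.23e-07). On CPM, counts scaled to the library total and not divided by length, CHRNA7 was at 29.5, 29.4 and 36.9 and CHRFAM7A at 6.81, 8.07 and 11.6. Both genes were thus level across the libraries on TPM and highest in replicate 3 on CPM. How the estimated counts divided the shared reads between them was not tested.

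Below these 3 genes came a group at a few TPM. CHRNA5, an accessory subunit that joins alpha4beta2 and alpha3beta4 receptors and is known for its coding variant linked to heavy smoking, was at 3.58, 3.44 and 5.54 TPM (mean 4.19 ± 1.17, limma adjusted p = 4.43e-05). CHRNA3, the ganglionic alpha subunit, was at 3.35, 4.09 and 3.3 TPM (mean 3.58 ± 0.442, limma adjusted p = 4.95e-05). CHRNB4, its usual beta partner, was at 2.87, 2.47 and 3.36 TPM (mean 2.9 ± 0.446, limma adjusted p = 0.000299). These 3 genes lie side by side on chromosome 15, CHRNA5 from 78565520 to 78595269 on the forward strand, CHRNA3 from 78593052 to 78620996 and CHRNB4 from 78624111 to 78661641 on the reverse strand.

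CHRNA2, known in mice from interneurons of the hippocampus and from the interpeduncular nucleus, was at 3.06, 2.84 and 3.93 TPM (mean 3.28 ± 0.576, limma adjusted p = 0.000124), on 196, 269 and 189 counts. The spans of CHRNA5 and CHRNA3 overlap by 2218 bases at their 3' ends, although no 151-base window of the longest CHRNA5 transcript lay in a CHRNA3 transcript. A noncoding gene on the opposite strand (AC027228.2 in GENCODE release 29) held 19.7% of the CHRNA5 windows and was itself at 0.8, 0.61 and 1.03 TPM in replicates 1, 2 and 3. The libraries were strand-specific, but no source used here says whether the counting used strand.

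CHRNA6 and CHRNA9 were the subunits that differed most between libraries among those with more than a few counts. CHRNA6, which is known in midbrain dopamine neurons, was at 2.24, 2.13 and 7.1 TPM in replicates 1, 2 and 3, on 109, 137 and 289 counts. Replicates 1 and 2 were alike and replicate 3 was high, although it was the shallowest library. The mean was 3.82 ± 2.84 TPM (limma adjusted p = 0.00284). Without replicate 3 it was still above the bar, by 1.05 on the log2 scale instead of 1.61 (limma adjusted p = 0.0098). The call was lost when genes at 0 in every library were kept in the fit (limma adjusted p = 0.0904).

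CHRNA9, the hair cell subunit, was at 1.24, 0.92 and 4.27 TPM on 38, 34 and 97 counts. The exact 95% Poisson intervals of these counts, which cover counting error only, were 26.9 to 52.2, 23.5 to 47.5 and 78.7 to 118, so replicate 3 lay outside both others despite its smaller depth. The mean of 2.14 ± 1.85 TPM was undecided against the bar, 0.72 above it on the log2 scale (limma adjusted p = 0.141), and 0.09 above it without replicate 3 (limma adjusted p = 0.785). Of all genes above the bar, 99.5% had a smaller coefficient of variation than CHRNA6 (74.2%) and 99.8% a smaller one than CHRNA9 (86.3%), beside a median of 13.2%. Those genes were not matched for level, and a gene with a large spread is less easily called above the bar. CHRNA9 was itself not called, so these percentages do not compare it with genes of like level.

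CHRNB3, an accessory subunit that accompanies alpha6, had 2, 1 and 6 counts in replicates 1, 2 and 3. That is 0.04, 0.02 and 0.15 TPM (mean 0.07 ± 0.07), below the bar (limma adjusted p = 0.000125). The exact 95% Poisson intervals were 0.242 to 7.22, 0.0253 to 5.57 and 2.2 to 13.1 counts. These intervals are on raw counts of libraries of different depth, and a difference between libraries was not tested.

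**Figure D2:**
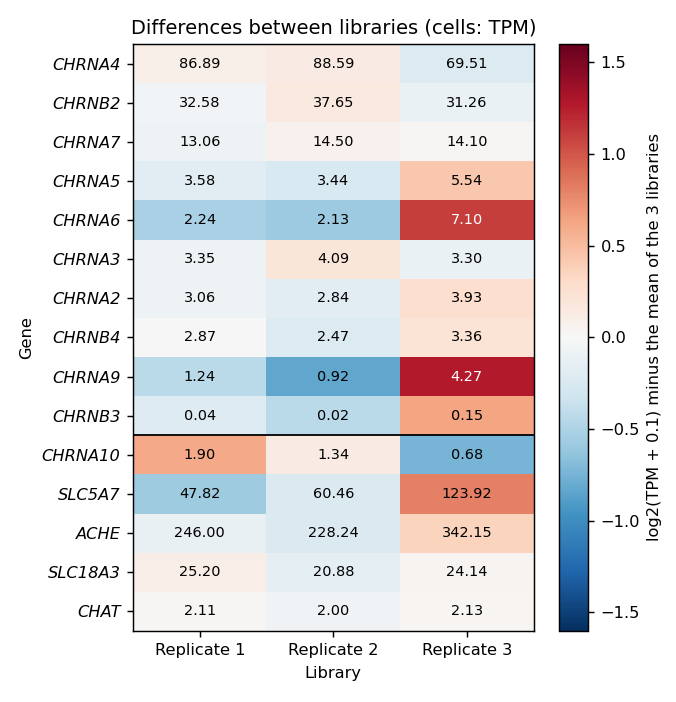
TPM of the 10 subunit genes and 5 partner genes (numbers in cells) in each library; colour is log2(TPM + 0.1) minus the mean of the 3 libraries. CHRNA6 and CHRNA9 are red in replicate 3 together with SLC5A7, CHRNA10 is blue there, and CHRNA7 and CHAT are close to white throughout.

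Other genes were also higher or lower in replicate 3. The choline transporter SLC5A7 was at 47.82, 60.46 and 123.92 TPM and the acetylcholine-degrading enzyme ACHE at 246, 228.24 and 342.15, while the synthesising enzyme CHAT was flat at 2.11, 2.0 and 2.13. The autonomic markers summed to 6.25, 5.09 and 9.84 TPM; 2 of 4 were above 1 TPM (PHOX2A at 2.17, 1.3 and 3.98, and DBH at 4.08, 3.76 and 5.86), while HAND2 was at 0, 0.03 and 0. The hair cell markers summed to 2.66, 2.94 and 4.06 TPM; MYO7A, at 2.53, 2.83 and 3.9, was above 1 TPM, and POU4F3, at 0.13, 0.11 and 0.16, was below. The part of these genes, and of the higher mitochondrial share, in the CHRNA6 and CHRNA9 values was not tested.

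The 3 medial habenula markers, which belong to a nucleus rich in CHRNA3 and CHRNB4, summed to 43.97, 43.16 and 39.95 TPM. Nearly all of this was the peptide gene TAC1 (43.47, 42.58 and 39.66), which many other neurons express, while POU4F1 (0.39, 0.45 and 0.23) and GPR151 (0.11, 0.13 and 0.06) were below 1 TPM. Of the motor neuron markers ISL1 was at 66.46, 77.05 and 55.59 TPM and MNX1 at 0.03, 0.02 and 0.

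The order of the 10 genes by mean TPM was CHRNA4, CHRNB2, CHRNA7, CHRNA5, CHRNA6, CHRNA3, CHRNA2, CHRNB4, CHRNA9 and CHRNB3. Neighbours were called different beyond their spread if their log2 ratio had 1 sign in 3 of 3 libraries and averaged over 2 SD away from 0, and 5 of the 9 neighbouring pairs met this. They were CHRNA4 over CHRNB2, CHRNB2 over CHRNA7 (1.28 ± 0.12 on the log2 scale), CHRNA7 over CHRNA5 (1.74 ± 0.37), CHRNA2 over CHRNB4 (0.17 ± 0.07) and CHRNA9 over CHRNB3. The order came from the same libraries, which favours 1 sign, and no correction was made over the 9 pairs. Counting error was not part of the rule. The small excess of CHRNA2 (196, 269 and 189 counts in replicates 1, 2 and 3) over CHRNB4 (151, 158 and 128) is therefore not established. CHRNA5, CHRNA6, CHRNA3 and CHRNA2 could not be ordered among neighbours, nor could CHRNB4 and CHRNA9. By CPM the first 3 places were the same and CHRNA2 moved from the 7th place to the 4th.

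The balance between the subunits was described with 9 log2 ratios taken within each library, and each was tested by flipping signs (exact permutation, 2-sided). With 3 libraries this exact permutation test cannot go below p = 0.25, so no ratio could reach 0.05 and only sizes and signs are given. Of the 9 ratios 7 were beyond the spread by the rule above, each with an exact permutation p of 0.25 (0.321 after Benjamini-Hochberg adjustment over the 9).

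CHRNA4 exceeded CHRNB2 by 1.41, 1.23 and 1.15 on the log2 scale in replicates 1, 2 and 3. The mean of 1.26 ± 0.13 is a 2.4-fold excess of the alpha over the beta transcript in 3 of 3 libraries. On CPM the ratio was 0.66 ± 0.05, so its size depends on the lengths used and its sign does not. The same 2 subunits are known to join in different proportions, giving receptors of higher and lower sensitivity to acetylcholine, and the proportion is known from expression studies to depend on the subunit supply; these RNA values do not measure it.

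The 4 alpha genes that pair with beta subunits (CHRNA2, CHRNA3, CHRNA4 and CHRNA6) together exceeded CHRNB2 and CHRNB4 by 1.43, 1.28 and 1.27 on the log2 scale (mean 1.33 ± 0.09, and 0.74 ± 0.02 on CPM). CHRNA4 exceeded CHRNA7 by 2.73, 2.6 and 2.29 (mean 2.54 ± 0.22, and 2.24 ± 0.26 on CPM). It exceeded the ganglionic CHRNA3 by 4.66, 4.4 and 4.36 (mean 4.47 ± 0.16, a 22.2-fold difference, and 4.98 ± 0.09 on CPM). CHRNB2 exceeded CHRNB4 by 3.46, 3.88 and 3.18 (mean 3.51 ± 0.35, or 11.4-fold). On CPM this ratio was larger, at 4.81 ± 0.28 on the log2 scale.

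The brain pair CHRNA4 plus CHRNB2 exceeded the ganglionic pair CHRNA3 plus CHRNB4 by 4.24, 4.25 and 3.9 on the log2 scale (mean 4.13 ± 0.2, 17.5-fold), and by 4.92 ± 0.11 on CPM. Within the chromosome 15 cluster 2 ratios were taken, and neither was beyond its spread. CHRNA3 over CHRNB4 was 0.22, 0.71 and -0.03 (mean 0.3 ± 0.37, exact permutation p = 0.5), and CHRNA5 over CHRNA3 was 0.09, -0.24 and 0.73 (mean 0.19 ± 0.49, exact permutation p = 0.75). CHRNA7 exceeded CHRFAM7A by 0.91, 1.17 and 0.96 (mean 1.01 ± 0.13 on TPM and 1.87 ± 0.22 on CPM).

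**Figure D3:**
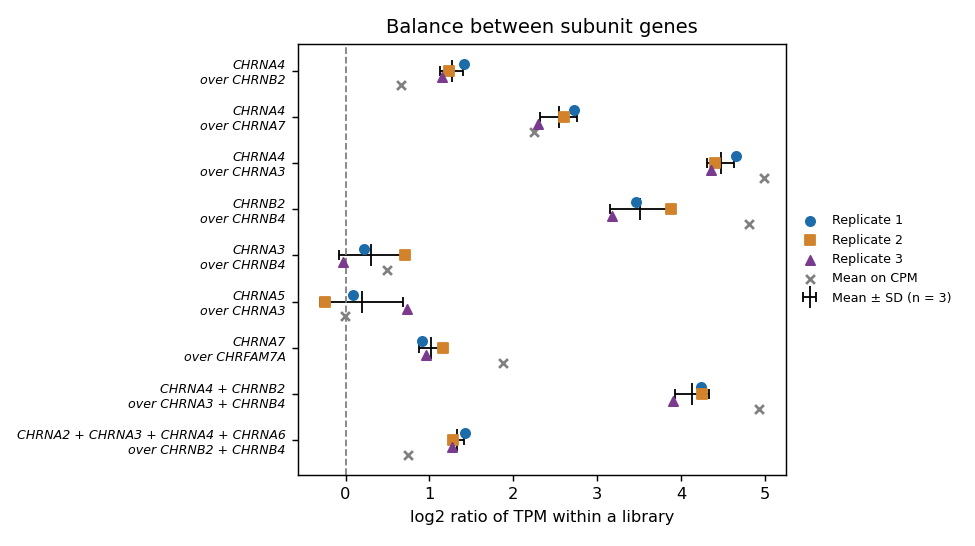
The 9 log2 ratios of TPM within each library (points), their mean ± SD (black, n = 3) and the mean on CPM (grey crosses), with 0 dashed. All points of 7 ratios lie to the right of 0, from 0.91 upward, while CHRNA3 over CHRNB4 and CHRNA5 over CHRNA3 have points on both sides.

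Which receptors these levels allow was read from 14 textbook assemblies. An assembly was counted when each of its subunit genes was above 1 TPM, and 10 of the 14 were. RNA levels do not show that the subunits were translated, assembled or in the same cell, and genes shared between assemblies make these counts dependent on each other. Among the 10, alpha4beta2 had the highest lowest subunit, CHRNB2, at 32.58, 37.65 and 31.26 TPM. For the alpha7 homomer and the alpha7beta2 receptor the lowest subunit was CHRNA7 (13.06, 14.5 and 14.1 TPM). The lowest subunit is the gene with the smallest TPM in an assembly. It takes no account of how many copies of each subunit a receptor holds.

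The other 7 counted assemblies had a lowest subunit of 2.47 to 5.54 TPM. They included alpha4alpha5beta2, with CHRNA5 lowest in 3 of 3 libraries, alpha3beta2, with CHRNA3 lowest, and alpha2beta2, with CHRNA2 lowest. In alpha4beta4 and alpha2beta4 CHRNB4 was the lowest. For alpha2beta4 this rests on the small excess of CHRNA2 over CHRNB4, which is not established. In alpha3beta4 and alpha3alpha5beta4 the lowest subunit was CHRNB4 in replicates 1 and 2 and CHRNA3 in replicate 3. In replicate 3, however, CHRNA3 (3.3 TPM, 160 counts) and CHRNB4 (3.36 TPM, 128 counts) were nearly equal. On CPM CHRNB4 was below CHRNA3 in every library, at 3.68, 2.63 and 3.69 against 4.5, 4.91 and 4.61. A change of the lowest subunit between libraries is therefore not established. The lowest level of alpha4beta2 (33.8 ± 3.37 TPM) thus exceeded that of alpha3beta4 (2.88 ± 0.415 TPM) without overlap between their libraries.

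The 4 assemblies that were not counted were those with CHRNB3 or CHRNA9. Both receptors that combine alpha6 with beta2 and beta3 had CHRNB3 as their lowest subunit at 0.15 TPM or less, although CHRNA6, CHRNA4 and CHRNB2 were above the bar. The list held alpha6 only together with the accessory beta3. Whether the levels allow alpha6 receptors without beta3 was therefore not assessed. CHRNA10, the partner of CHRNA9, was at 1.9, 1.34 and 0.68 TPM (mean 1.31 ± 0.611, undecided, limma adjusted p = 0.522), so it was lowest in the library where CHRNA9 was highest. Both genes exceeded 1 TPM in 1 library, replicate 1.

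**Figure D4:**
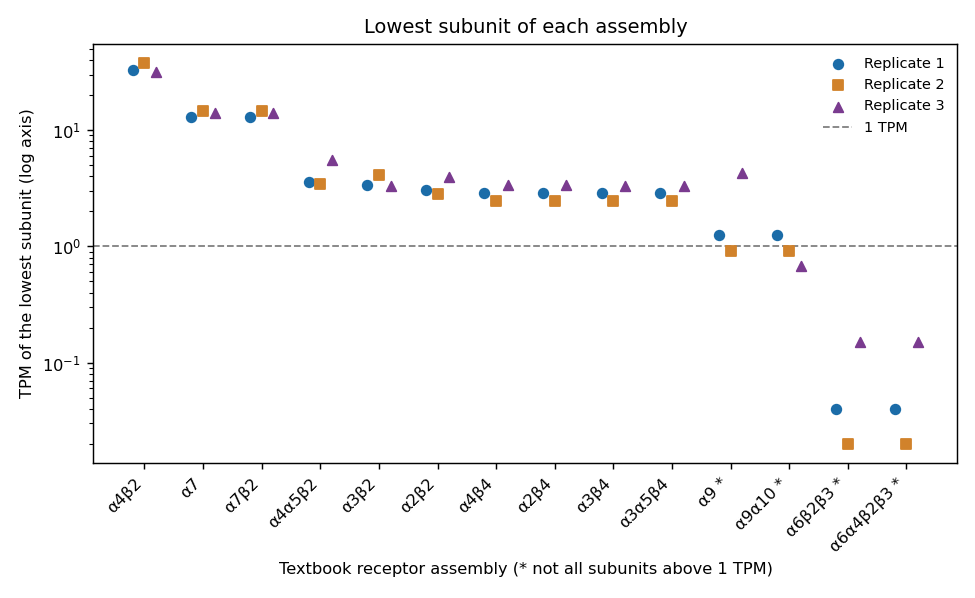
TPM of the lowest subunit of each of 14 textbook assemblies (log axis) in each library, ordered by the mean, with 1 TPM dashed; a star marks assemblies with a subunit that was not above 1 TPM. The alpha4beta2 receptor is highest at 31.26 to 37.65 TPM, the alpha7 receptors follow at 13.06 to 14.5, and the starred receptors with CHRNB3 are at 0.15 or less.

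Other subunit genes and partners were described with 4 lists of 35 genes. Of these 24 were above 1 TPM, 5 below and 4 undecided, and 2 were listed at 0 in every library, beside 40.6% above over all genes tested and 71.2% over protein-coding genes. The muscle-type subunits were nearly absent apart from CHRNB1, the beta subunit of the muscle receptor, at 22.79, 21.86 and 26.83 TPM (mean 23.8 ± 2.64, limma adjusted p = 2.79e-09). CHRNA1 had 0, 0 and 1 counts, CHRND 2, 4 and 0, and CHRNG 0 in each library, which allows up to 0.073, 0.0499 and 0.0864 CPM. CHRNE was at 0.35, 0.12 and 0.16 TPM and below the bar. Of 4 skeletal muscle markers MYOD1 was at 0 in every library, MYOG (0.28, 0.23 and 0.12 TPM) was below 1 TPM, MYH3 (0.92, 1.22 and 0.9) was undecided and ACTA1 (4.7, 3.93 and 3.62) was above.

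All 11 genes of receptor assembly and surface delivery were above 1 TPM, with a median of their mean levels of 221 TPM. TMEM35A, which encodes the chaperone NACHO that alpha7 and other nicotinic receptors need to assemble, was at 341.67, 349.92 and 302.87 TPM (mean 331 ± 25.1). RIC3, a second chaperone of nicotinic receptors, was at 45.63, 50.17 and 48.69 TPM (mean 48.2 ± 2.32). Both stood above CHRNA7 in every library.

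YWHAH, a 14-3-3 protein that binds the alpha4 subunit, was at 640.2 ± 59.8 TPM and VSNL1, a calcium sensor that also binds alpha4, at 241 ± 16.3. The general chaperones of the endoplasmic reticulum CANX (343 ± 55.7 TPM) and HSPA5 (221 ± 12.8) and the scaffolds DLG4 (331 ± 15.6), which is PSD-95, and PICK1 (59.9 ± 2.15) were also above. So were CRELD2 (38.3 ± 2.54 TPM), whose product binds alpha4 and beta2 subunits, and UBXN2A (8.61 ± 0.732), whose product protects alpha3 from ubiquitination. Most of these genes serve many other proteins.

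Of 9 Ly6-type genes, whose membrane-bound or secreted products resemble snake toxins and can modulate nicotinic receptors, 4 were above 1 TPM. LY6H, which limits alpha7 receptors at the surface, was at 693.86, 626.69 and 591.79 TPM (mean 637 ± 51.9), above every subunit gene. LY6E was at 123 ± 12.7 TPM and LYNX1, a brake on alpha4beta2 and alpha7 receptors, at 44.19, 47.53 and 54.74 (mean 48.8 ± 5.39). LYPD1, also called Lynx2, was at 46.93, 44.52 and 27.24 TPM (mean 39.6 ± 10.7), lowest in replicate 3. LYPD6B (1.46 ± 0.282 TPM), PSCA (1.3 ± 0.341) and LYPD6 (0.797 ± 0.165) were undecided, SLURP2 (0, 0 and 0.4) was below and SLURP1 was listed at 0.

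In the list of ligand supply and removal 7 of 8 genes were above 1 TPM. ACHE stood at 272 ± 61.3 TPM and BCHE, a second cholinesterase, at 10.6 ± 0.89. COLQ, the collagen tail of acetylcholinesterase at the muscle endplate, was at 3.89 ± 0.864 TPM, whereas PRIMA1, the membrane anchor of the enzyme in brain, was below the bar at 0.133 ± 0.0404 (limma adjusted p = 0.000539). The vesicular acetylcholine transporter SLC18A3 was at 23.4 ± 2.25 TPM, and the choline carrier SLC44A1, which is not specific to cholinergic cells, at 3.78 ± 0.841. SLC18A3 lies within the CHAT gene, and whether reads of the 2 genes were confused was not tested.

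**Figure D5:**
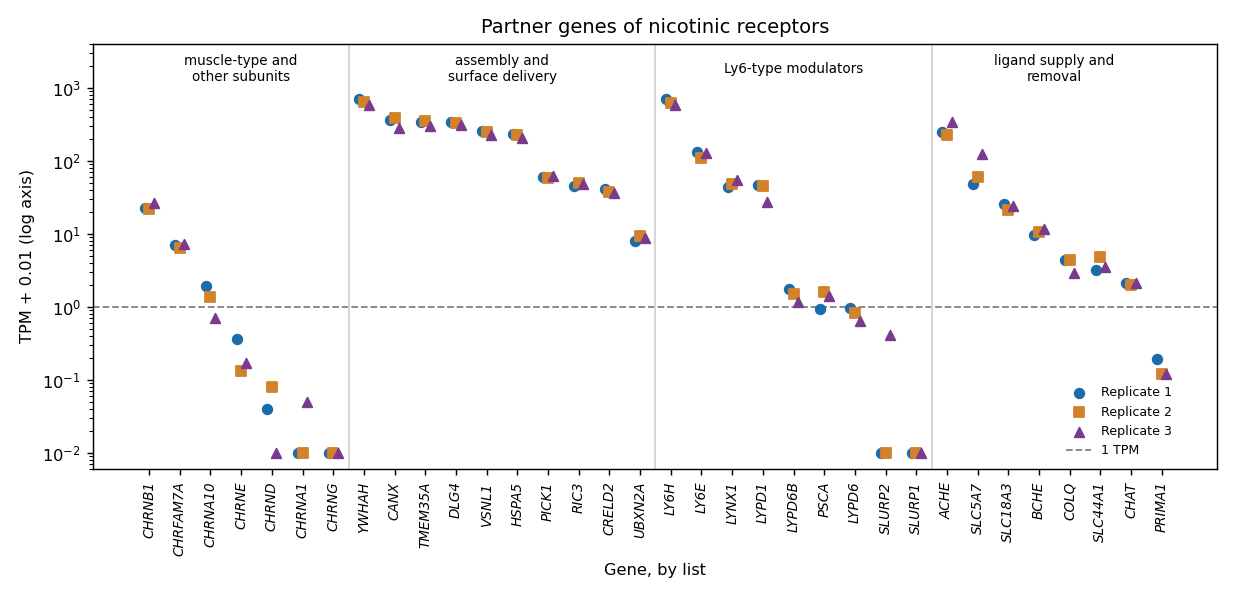
TPM + 0.01 (log axis) of the partner genes in 4 lists, by library, without 1 assembly gene that is not reported here, with 1 TPM dashed; points at the bottom edge are 0 TPM. The assembly genes shown all lie above the bar, CHRNB1 is the one muscle-type subunit above it, and LY6H is the highest Ly6-type gene at 591.79 to 693.86 TPM.

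The genes whose TPM values lay nearest to those of CHRNA4 over the 3 libraries were TBR1 (87.69, 88.72 and 71.07 TPM), RNF157 (87.67, 90.83 and 69.18) and RBM4B (87.09, 89.36 and 67.33), at distances of 0.0347, 0.0388 and 0.0477 on the log2 scale. Those nearest to CHRNB2 were SRGAP2 (32.85, 37.3 and 31.82 TPM), USP48 (32.03, 36.68 and 30.83) and UNC119B (31.57, 37.25 and 31.77), at 0.0312, 0.0491 and 0.0532. The distance is Euclidean over 3 values, and 198 genes lay within 0.25 of CHRNA4 and 385 within 0.25 of CHRNB2, so such likeness is common.

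The sequence before an annotated start was compared for the 5 subunits with an entry in the RefSeq promoter table (CHRNA3, CHRNA7, CHRNA9, CHRNB2 and CHRNB4). The CHRNB4 window (chromosome 15, 78641211 to 78641460) lay inside the span of the gene, so it precedes an internal start. The 250 bases upstream of the start are shown for CHRNA7 and CHRNA9, which had the smallest and the largest coefficient of variation of TPM of the 5, and for CHRNB2, the highest of the 5. They are written 5′ to 3′ on the gene's strand, which is the forward strand for all 3, with the motif GGGCGG, searched on both strands with overlapping matches counted, in capitals (GRCh38.p14).
CHRNB2, chr1:154567528-154567777: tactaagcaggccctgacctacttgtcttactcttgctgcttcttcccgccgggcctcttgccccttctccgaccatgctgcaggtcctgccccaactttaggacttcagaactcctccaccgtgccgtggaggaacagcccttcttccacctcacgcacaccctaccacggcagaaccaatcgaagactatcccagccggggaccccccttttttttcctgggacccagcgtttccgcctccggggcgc
CHRNA7, chr15:32030233-32030482: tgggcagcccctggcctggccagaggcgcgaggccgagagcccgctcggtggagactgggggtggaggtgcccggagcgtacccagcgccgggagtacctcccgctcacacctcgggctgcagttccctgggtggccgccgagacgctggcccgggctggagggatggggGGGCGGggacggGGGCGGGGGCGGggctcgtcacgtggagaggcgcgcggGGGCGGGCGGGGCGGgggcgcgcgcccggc
CHRNA9, chr4:40335083-40335332: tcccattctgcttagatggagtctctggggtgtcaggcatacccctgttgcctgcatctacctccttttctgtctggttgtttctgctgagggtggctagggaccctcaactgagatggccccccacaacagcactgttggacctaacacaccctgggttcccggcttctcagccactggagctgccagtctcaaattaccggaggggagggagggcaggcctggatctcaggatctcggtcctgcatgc
The CHRNA7 window, the first of 2 in the table, was 80.4% G or C and held 6 matches of GGGCGG, a motif known to bind Sp1-type factors. The CHRNB2 window was 60.4% G or C and the CHRNA9 window 58.0%, and neither held the motif. CHRNA3 (73.6% G or C) had 4 matches and CHRNB4 (72.4%) had 3, so the motif was in subunits at both 14 and 3 TPM. Of 35116 windows of the same length 42.6% held it, with a median of 58.0% G or C. A match describes the letters and is not a measured binding site.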

How the data were processed

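RNA was measured in 3 iGluta samples. Per the labels' protocols, polyadenylated RNA was made into strand-specific libraries and sequenced as paired 151-base reads. The authors deposited estimated counts, not normalized, and TPM, for 78932 genes each. RSEM and GRCh38.p14 are named per the submitters' processing notes; no source used here gives the RSEM version, aligner, annotation release or strand setting.

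Levels were compared with 1 TPM in limma 3.58.1 (R 4.3.3; intercept-only, eBayes with trend) on log2(TPM + 0.1), for the 38992 genes with any TPM, adjusted by Benjamini-Hochberg; a gene was called at an adjusted p under 0.05. This scale understates differences of low genes. Spread between libraries was described with edgeR 4.0.16 on counts rounded to whole numbers (TMM, filterByExpr, 19089 genes; common biological coefficient of variation 0.188). Data were simulated for 36769 genes, all with this common coefficient. The fit called 39 of 40 genes above at a true level of 2 TPM, 0 of 40 either way at 1 TPM and 39 of 40 below at 0.5 TPM. The coefficient was larger for CHRNA5 (0.277), CHRNA6 (0.455) and CHRNA9 (0.509), so these rates do not carry over to them. CHRNB4, CHRNA2 and CHRNA3 also lay above 0.188, and CHRNA4, CHRNB2 and CHRNA7 below it.

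Named genes were the 10 subunits, all list and ratio genes, and the 3 genes nearest to each of the 2 highest subunits. The members, lists, ratios, tests and markers were chosen with earlier results of these data known. In the lists, 2 genes are counted but not reported here by name. Alternatives changed the pseudocount, bar, filter, scaling, unit, trend and replicates. All 10 subunits matched the RefSeq table; 5 had a promoter entry, and sequences from chromosome 8 are not printed. Floors of 3 counts and 95% intervals cover counting error only.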

Additional observations from a re-analysis of the deposited data

How the results depend on the processing

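With each replicate left out, 8 subunits, 24 partner genes and 10 assemblies were again called above the bar, and under the other alternatives the counts were 7 to 9, 23 to 27 and 10 to 12. CHRNA6 was no longer called against a bar of 2 TPM (0.67 on the log2 scale, limma adjusted p = 0.0957) or with genes at 0 kept (1.61, limma adjusted p = 0.0904), while CHRNA9 was called above 0.5 TPM (1.6, limma adjusted p = 0.00872) and lay below 2 TPM without a call (-0.21, limma adjusted p = 0.642); the bar itself is what changed in 3 of these. The other subunits kept their calls. CHRNB3 has no value under the filter on low means. CHRNA5 over CHRNA3, within its spread in every setting, turned to -0.0011 on CPM and ranged from -0.075 (without replicate 3) to 0.412 with a replicate left out. The other 8 ratios kept their sign and their call. With CHRFAM7A added to CHRNA7, an alternative chosen after seeing the data, CHRNA4 still exceeded it by 1.97 on the log2 scale. The common biological coefficient of variation was 0.12 to 0.218 with a replicate left out, lowest without replicate 3, and 0.222 without a filter; for it and for CHRNA5 over CHRNA3 the cause was not tested. No paired analysis was possible because there is 1 group. CHRNB3 and the muscle-type genes rest on few counts, and a culture of mixed cells limits what a low level says about any 1 cell.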
